A study of Rattus norvegicus with 2 samples.

Results

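Described here are 6 miRNAs known to be enriched in neurons, miR-9, miR-124, miR-128, miR-137, miR-138 and miR-218. They were taken by name from the rat miRNA probes of the arrays, as rno-miR-9, rno-miR-124, rno-miR-128, rno-miR-137, rno-miR-138 and rno-miR-218. Names ending in an asterisk, which mark the passenger strand of a hairpin, were kept apart. This gave 6 of 349 probes, 1 for each member. Small RNA came from the nucleus accumbens (NAc), core and shell included, of male Sprague-Dawley rats that weighed 150 to 180 g at the start. The vehicle group was given 500 µl saline i.p. bid and the alcohol group was given 1 g/kg alcohol i.p. bid, and the NAc was taken after 7 days. The RNA was labelled with Cy3 and each group was read on a single array of 1 colour. The study used 18 rats, 9 in each group, and whether the RNA of several rats was pooled for an array is not given in the sources used here.

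A miRNA pairs with its target mRNAs mainly through its seed, bases 2 to 8 from the 5′ end, and lowers their stability and translation. In the brain, neuron-enriched miRNAs keep transcripts of progenitors and of other cell types low, and several act in dendrites, at synapses or on excitability. Most neurons of the NAc are GABAergic medium spiny neurons that carry D1 or D2 dopamine receptors. In pieces of whole tissue such as these, fewer neurons and less of a miRNA in each neuron cannot be told apart.

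Each probe was printed as 9 repeat spots, and the level of a spot is its mean density in scanner units, without background subtraction. Every spread given below is over repeat spots of an array and is therefore technical. Because a group is 1 array, differences between groups have neither a test nor a p-value. Detection required 5 or more of the 9 spots to exceed the median of 88 mismatched control spots plus 3 median absolute deviations, which was 278 for the vehicle array and 179 for the alcohol array. The vehicle array had 151 detected miRNAs and the alcohol array 196, with 150 in common. All 6 members were among the 150, with 9 of 9 spots above the limit in each case, so the tissue labelled as brain carried each of these neuronal markers.

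miR-9 restrains neural progenitors and promotes neuronal differentiation. On the vehicle array its 9 spots had a lowest density of 290, a median of 37278 and a highest of 41432. The lowest was a failed spot, and the next lowest was 30582. On the alcohol array the spots ran from 24763 through a median of 27163 to 28430. Apart from the failed spot, every vehicle spot of miR-9 was brighter than every alcohol spot.

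miR-124 represses non-neuronal transcripts, among them that of the splicing repressor Ptbp1. Its vehicle spots had a lowest density of 16583, a median of 17685 and a highest of 18917. The alcohol spots had a lowest of 14534, a median of 16197 and a highest of 16802. The ranges overlapped narrowly, and at each of the 9 positions the alcohol spot was the dimmer.

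miR-128 limits neuronal excitability, and in mice its loss from neurons with D1 receptors causes hyperactivity and seizures. The vehicle spots had a lowest density of 30057, a median of 32533 and a highest of 34724. On the alcohol array the lowest was 22976, the median 25038 and the highest 25756. The spots of the arrays did not overlap, and the alcohol array was the dimmer.

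miR-137 acts on neuronal maturation and on synapses, and its locus is associated with schizophrenia in humans. The vehicle spots had a lowest density of 5826, a median of 6681 and a highest of 8757. The alcohol spots had a lowest of 9832, a median of 10886 and a highest of 11232. Here too the spots did not overlap, and the alcohol array was the brighter.

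miR-138 is found in dendrites, where it limits the size of spines. Its vehicle spots had a lowest density of 3002, a median of 3242 and a highest of 3698. The alcohol spots had a lowest of 3702, a median of 4032 and a highest of 4286. The dimmest alcohol spot lay just above the brightest vehicle spot, so the ranges were adjacent without overlap.

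miR-218 is best known from motor neurons and is encoded inside the genes of the axon guidance factors Slit2 and Slit3. The vehicle spots had a lowest density of 4341, a median of 7198 and a highest of 10578. On the alcohol array the lowest was 9850, the median 10937 and the highest 12021. The ranges overlapped, because the brightest vehicle spots reached the level of the alcohol spots, although at each of the 9 positions the alcohol spot was the brighter.

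**Figure D1:**
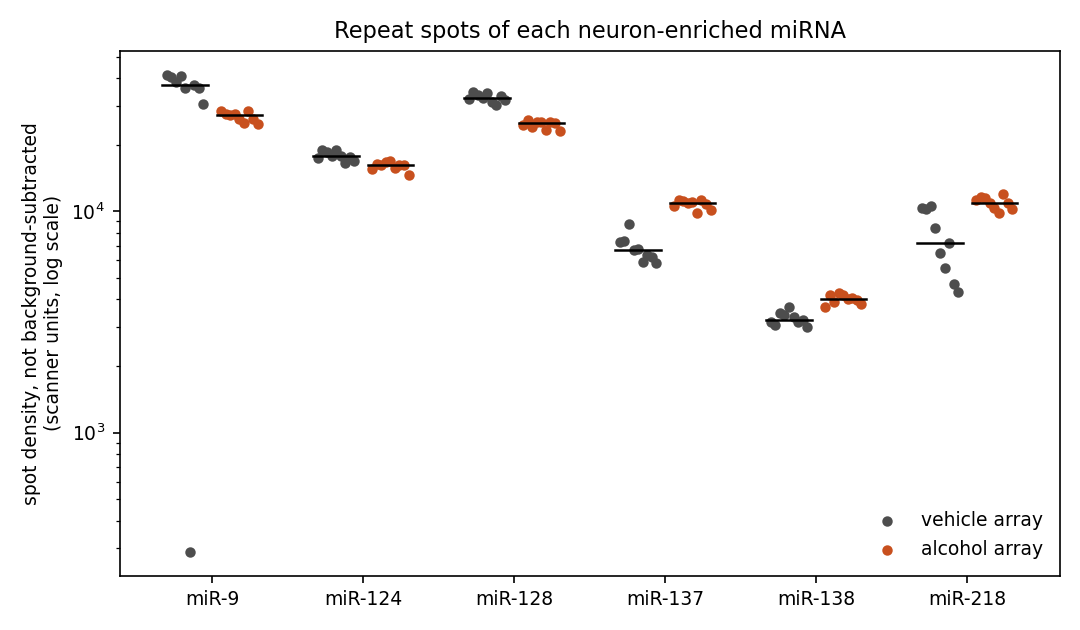
Density of the 9 repeat spots of each neuron-enriched miRNA on the vehicle array (grey) and the alcohol array (orange), in scanner units on a log axis, with a black line at the median and spots in file order from left to right. The failed vehicle spot of miR-9 is at 290, and the vehicle spots of miR-218 fall from 10578 to 4341 while the alcohol spots stay between 9850 and 12021.

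The arrays had to be brought to a common scale before ratios were read, because the difference in brightness between them depended on the signal. Spot densities were corrected for background, put on the log2 scale, summarised as the median of the 9 spots and normalized between the arrays with cyclic loess. Ratios are log2 of alcohol over vehicle, with the SD over the 9 pairs of spots at the same place on both arrays (8 pairs for miR-9, without the failed spot). The normalized signal of miR-9 was 31434 for vehicle and 32023 for alcohol, a log2 ratio of 0.027 ± 0.092. miR-124 went from 16520 to 17145, a log2 ratio of 0.054 ± 0.059. miR-128 went from 27935 to 28968, a log2 ratio of 0.052 ± 0.067. These 3 members, the ones best known for neuronal identity and excitability, differed between the arrays by less than the spread of their spots after loess, which did not hold under other scalings. Over the 16 other settings, miR-9 was past 1.3-fold lower in 5 and past 1.3-fold higher in 1, miR-124 lower in 2 and higher in 1, and miR-128 lower in 2. For miR-138 the normalized signal was 3730 and 3313, a log2 ratio of -0.17 ± 0.098 or 88.8% of vehicle, and the ratio was above 0 in 4 of the 16.

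The other 2 members, miR-137 and miR-218, had the larger ratios. Normalized signal of miR-137 was 6882 for vehicle and 10305 for alcohol, which is 149.7% of vehicle or 0.58 ± 0.16 on the log2 scale. For miR-218 it was 7378 and 10418, which is 141% of vehicle or 0.50 ± 0.45. The miR-137 difference was several times the spread of its spots, whereas that of miR-218 was about as large as its spread. Both ratios were above 0 in 14 of the 16 other settings, and turned negative when each array was scaled to the median of the detected miRNAs (miR-137 -0.47, miR-218 -0.57) or to the 75th percentile of all probes (-0.27 and -0.38).

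For counts, and without a test, the miRNAs taken were those detected on 1 array or both whose normalized signal reached 400 on the brighter array, and the threshold was a difference of 1.3-fold. Of the 6 members, 2 were past this threshold, against 56 of 124 abundant miRNAs in all (45.2%). Both members, miR-137 and miR-218, were on the higher side, where 30 of the 124 lay (24.2%). On the lower side were 0 of the 6 members and 26 of the 124 (21.0%). With so few members these shares are near the background and do not set the members apart. The counts moved with the scaling: 1 member was lower and 2 were higher without normalization, where 6.25% of the abundant miRNAs were lower and 63.3% higher. All 6 were lower when the arrays were scaled to the median of the detected miRNAs, as were 63.1% of the abundant miRNAs. At a threshold of 1.5-fold no member was counted, since miR-137 fell just short of it, while 19 of all the miRNAs were higher and 18 lower.

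In the order of their ratios among the 124 abundant miRNAs, miR-137 ranked 20 from the top and miR-218 ranked 24. miR-124, miR-128 and miR-9 followed close together at ranks 56, 57 and 60, and miR-138 ranked 83. The step from miR-137 to miR-218 was 0.085 log2 and that from miR-218 to miR-124 was 0.44, each smaller than the spot SD of miR-218 (0.45). The steps among miR-124, miR-128 and miR-9 were at most 0.026, below their spot SDs. Only the step from miR-9 down to miR-138, 0.20 log2, was larger than the SD of either neighbour. This step was turned without normalization, with miR-9 at -0.46 and miR-138 at 0.35. It was also turned under each constant scaling and with the GC trend removed. The 6 members had a median log2 ratio of 0.053, beside -0.035 for the 150 miRNAs in common, and this order of the medians was turned without normalization (0.11 and 0.52) and under each constant scaling.

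The spots of miR-218 changed with their place on the vehicle array. The 9 spots stand in 3 blocks of rows, and the median vehicle density of miR-218 was 10332 in the first block, 6503 in the middle block and 4701 in the last. On the alcohol array the same medians were 11493, 10401 and 10913. The log2 ratio of miR-218 was accordingly 0.0067 in the first block, 0.57 in the middle and 1.12 in the last. Its first 5 spots gave 0.18, which is not past the threshold, and its last 4 gave 0.81.

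A fall of this size along the array was not general, though the median showed a smaller one on the vehicle array. Over the 150 miRNAs in common, the median ratio of first to last block density was 1.14 for vehicle and 1.01 for alcohol. The vehicle ratio was 2.20 for miR-218, and 2 of the 150 exceeded it. The same vehicle ratio was 1.18 for miR-137, 1.12 for miR-9, 1.09 for miR-124, 1.05 for miR-128 and 1.00 for miR-138. The log2 ratio of miR-137 was positive in each block and rose along the array, with 0.42 in the first, 0.58 in the middle and 0.69 in the last. That of miR-138 was negative in each, with -0.26, -0.21 and -0.13. The size of the miR-218 difference thus depended on which spots were read, and that of miR-137 much less so.

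Before normalization the members split by brightness. The 3 brightest had log2 ratios below 0, with -0.46 for miR-9, -0.38 for miR-128 and -0.12 for miR-124. The 3 dimmer ones had ratios above 0, with 0.72 for miR-137, 0.62 for miR-218 and 0.35 for miR-138. The same slope ran through the other miRNAs, so the unnormalized ratio of each member was set beside those of miRNAs within 1 log2 unit of its mean signal.

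Near miR-9 the median unnormalized ratio was -0.31 over 12 miRNAs, of which 10 were above miR-9. Near miR-128 the median was also -0.31, over 14 miRNAs, of which 9 were above it, and near miR-124 it was -0.29 over 22 miRNAs, of which 7 were above it. miR-128 and miR-124 had neighbours well to either side, whereas miR-9 lay below most of its own. Near miR-137 the median was 0.17 over 29 miRNAs, and 4 had a higher ratio than miR-137. Near miR-218 it was 0.23 over 28 miRNAs, and 6 were higher. miR-138 lay on the other side, with a median of 0.46 over 38 neighbours, 27 of which were higher. Loess moved miR-138 by -0.52, more than any other member, and with it the sign of its ratio. By brightness, miR-9 ranked 1 of 349 on both arrays, although the brightness of a spot depends on the probe as well as on the amount of miRNA and the ranks say nothing of relative abundance.

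**Figure D2:**
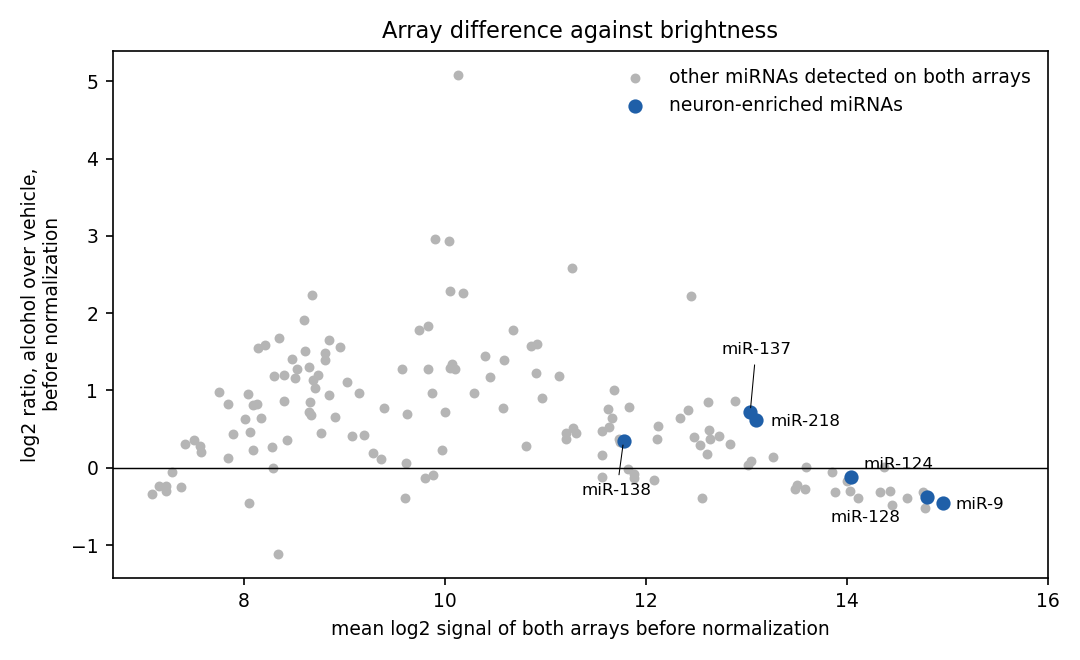
Log2 ratio of alcohol over vehicle before normalization between the arrays, against the mean log2 signal of both arrays, for the 150 miRNAs detected on both arrays (grey) and the 6 neuron-enriched miRNAs among them (blue). Before normalization miR-9, miR-124 and miR-128 have ratios below 0, as do most miRNAs of like brightness, and miR-9 lies below 10 of its 12 neighbours, while miR-137 and miR-218 lie above most of theirs.

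Differences between members do not depend on any scaling that shifts all probes of an array alike. The log2 ratio of miR-137 exceeded that of miR-138 by 0.75 after loess and by 0.38 under each constant scaling and without normalization. It was the higher of the pair in 16 of 16 other settings, 5 of which share the value 0.38 by construction, and the smallest difference was 0.0077, below the spread of the spots, after a trend on base composition had been removed. miR-218 exceeded miR-138 by 0.67 after loess and was likewise the higher in 16 of 16, with a smallest difference of 0.037 in the same setting. Under the constant scalings the miR-218 difference was 0.27, below the spot SD of miR-218. The pairs set the members that were highest after loess against the one that was lowest after loess on the same arrays. The shared sign is therefore a description and no support. Without normalization, under each constant scaling and with the GC trend removed, the lowest member was miR-9.

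**Figure D3:**
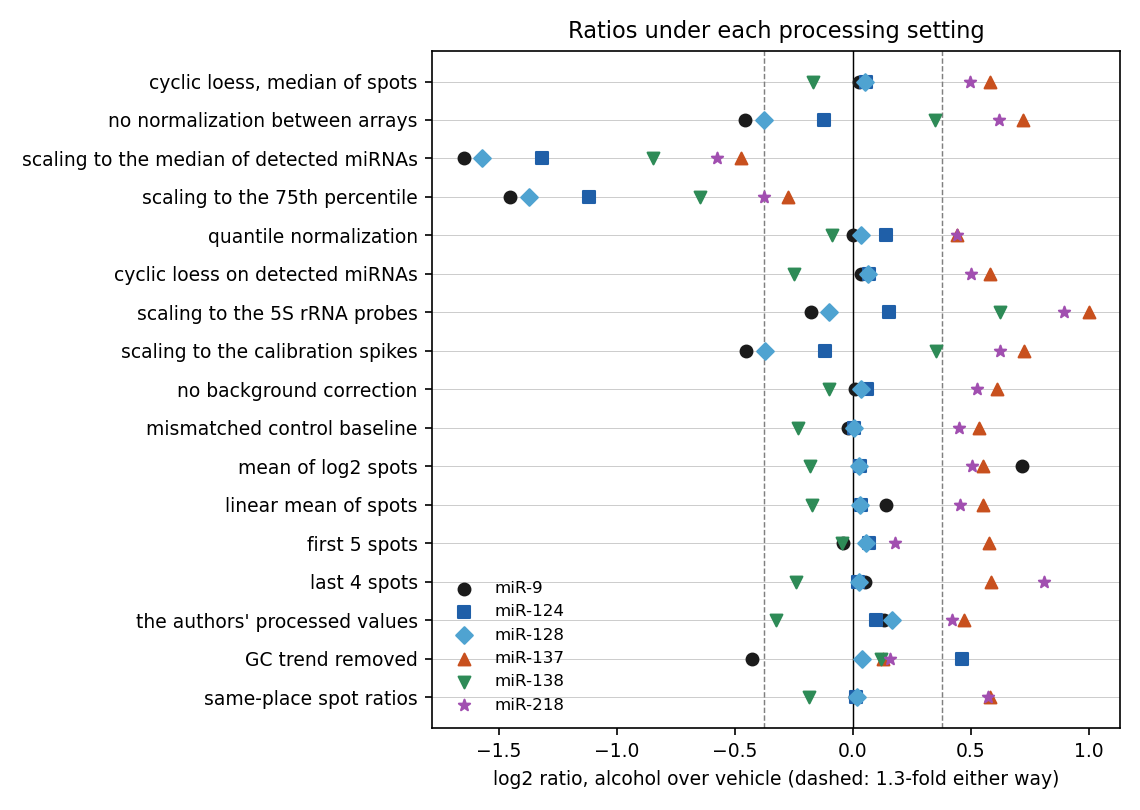
Log2 ratio of alcohol over vehicle of the 6 neuron-enriched miRNAs under each way of processing the arrays, with dashed lines at 1.3-fold either way. miR-137 and miR-218 lie above 0 except where arrays were scaled to the median of the detected miRNAs or to the 75th percentile, and miR-9 moves to 0.72 where the failed spot enters a mean of log2 values.

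Passenger strands, the arms of a hairpin that mostly are degraded, were on the array for miR-9, miR-124, miR-138 and miR-218. miR-9*, which is itself functional in neurons, had a median density of 15270 for vehicle and 14620 for alcohol and a log2 ratio of 0.060 ± 0.15, so after loess neither arm of the miR-9 hairpin differed by more than the spread of its spots, which for miR-9 did not hold without normalization (-0.46). miR-138* had 802 and 1789 and a log2 ratio of 0.39 ± 0.27, just past the 1.3-fold threshold and opposite in sign to miR-138 after loess. Before normalization both were above 0, miR-138* at 1.35 and miR-138 at 0.35, and the loess moved them by -0.95 and -0.52. The miR-138* sequence matched 1 place in the genome, and that of miR-138 matched 2. miR-124* and miR-218* were not detected on either array.

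For each member, the 2 miRNAs detected on both arrays that lay nearest in normalized log2 level on the 2 arrays were looked up, a likeness that rests on 2 values. miR-137 and miR-218 were each other's nearest, 0.10 log2 apart, and miR-30b-5p was second for both, with a log2 ratio of 0.67 ± 0.26. Nearest to miR-9 were miR-128 at 0.22 and miR-26a at 0.26. miR-128 had miR-125b-5p at 0.069 and miR-26a at 0.11. Around miR-124 were miR-125a-5p at 0.070 and miR-132 at 0.12, both brain-enriched themselves. miR-138 lay beside miR-150 at 0.049 and miR-185 at 0.064, whose log2 ratios were -0.20 ± 0.56 and -0.16 ± 0.10.

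The target sequences of 5 of the 6 members were found by exact match among the mature miRNAs of RefSeq (GRCr8). They are shown 5′ to 3′ with the seed in capitals, since the seed decides which mRNAs each one can pair with.
miR-9: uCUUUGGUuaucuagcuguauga
miR-128: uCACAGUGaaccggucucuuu
miR-137: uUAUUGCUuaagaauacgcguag
miR-138: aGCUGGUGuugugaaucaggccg
miR-218: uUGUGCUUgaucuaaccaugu
No seed is shared within this group, and 0 other probes on the array carry the seed of any of the 5. miR-137 and miR-218, the members with higher ratios, thus have different seeds. The closest other probe without gaps matched miR-9 at 12 of 23 bases (miR-135a), miR-128 at 13 of 21 (miR-139-5p), miR-137 at 12 of 23 (miR-217), miR-138 at 13 of 23 (miR-187) and miR-218 at 12 of 21 (miR-135a).

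miR-27a and miR-27b are not neuron-enriched, but their seed is that of miR-128 shifted by 1 base, as these sequences from the same source show.
miR-27a: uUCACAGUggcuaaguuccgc
miR-27b: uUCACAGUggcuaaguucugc
Median density of miR-27a was 469 for vehicle and 2743 for alcohol, with no overlap of spots and a log2 ratio of 1.98 ± 0.51. miR-27b had 2728 and 4117 and a log2 ratio of 0.085 ± 0.16, and its spots did not overlap either. miR-128 itself was at 0.052 ± 0.067, so after loess miR-27a alone of these 3 miRNAs with related seeds was past the threshold. Without normalization miR-27b was past it too, at 0.64.

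In GRCr8 the mature sequence of miR-137 lies at 1 place, chr2:209165767-209165789 on the plus strand, within the span of the long noncoding RNA gene LOC120100931. That of miR-218 lies at chr14:66922413-66922433 on the minus strand, within Slit2, and at chr10:20572547-20572567 on the plus strand, within Slit3. A probe for the mature miRNA reads the sum of all such copies. miR-128 is encoded at chr13:42251933-42251953 on the plus strand, within R3hdm1, and at chr8:120963807-120963827 on the minus strand, within Arpp21, a gene for a phosphoprotein of striatal neurons. miR-138 has copies at chr8:131178456-131178478 on the plus strand, within the noncoding genes LOC103690480 and LOC102550701, and at chr19:10680184-10680206 on the minus strand, within Slc12a3. miR-9 has 3 copies on the plus strand, at chr1:142849415-142849437 within Mir9-3hg, at chr2:15933307-15933329 within Mir9-2hg and at chr2:175974986-175975008 within LOC100911992. Spans are whole genes, and exons, introns and the strand of the host genes were not analysed here. No host gene was measured on these arrays.

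Base composition differed among the members and went along with the ratios across the array. Over the 150 miRNAs detected on both arrays, Pearson's r between GC content and the log2 ratio was -0.42 after loess and -0.28 without normalization, a description across miRNAs of 1 pair of arrays, which are not independent replicates. Both members with higher ratios were poor in GC, miR-137 with 34.8% and miR-218 with 38.1%, against a median of 47.8%. miR-9, also with 34.8%, had no such ratio. With the trend on GC removed, miR-137 was at 0.13, miR-218 at 0.16 and miR-138 at 0.12, none past the threshold. miR-9, at -0.43, and miR-124, at 0.46, were then past it on opposite sides. After loess miR-124, with 60% GC, was at 0.054 and miR-138, with 56.5%, was at -0.17. The part of base composition in the differences was not tested.

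Other brain-enriched miRNAs, a list of 20 probes, held 15 detected on both arrays. Of the list, 15 were abundant, and 4 of these were past 1.3-fold on the higher side (miR-384-3p among them, detected on the alcohol array alone) and 4 on the lower, against 24.2% and 21.0% of all abundant miRNAs. For the 15 detected on both arrays the median log2 ratio was -0.12 after loess, against 0.053 for the 6 members, and the order was turned without normalization (0.17 and 0.11) and under each constant scaling. Its brightest probe was miR-125b-5p, with a log2 ratio of 0.10 ± 0.13. After loess the detected probes with the largest ratios in size were miR-134 at -1.46 ± 0.097, miR-384-3p, and miR-485 at -1.08 ± 0.11. Without normalization miR-134 was at -0.40 and miR-485 at -0.090, the latter not past 1.3-fold. The largest in size were then miR-384-3p, miR-153 at 1.58 and miR-212 at 1.45. Summed median density was 95416 for vehicle and 90015 for alcohol, and that of the 6 members was 104617 and 94252. After loess the members spanned -0.17 to 0.58, whereas all 6 were below 0 when the arrays were scaled to the median of the detected miRNAs or to the 75th percentile.

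Markers of other cells in the tissue piece were read beside the members. The vessel miRNAs miR-126, miR-143 and miR-145 were detected on both arrays in 3 of 3 cases, with a median log2 ratio of 0.28 after loess and 1.28 without normalization. Their summed density was 7785 for vehicle and 11922 for alcohol, with miR-126 the brightest. After loess miR-126 was at 0.17 ± 0.15 and miR-145, at 0.54 ± 0.28, was the only one past the threshold, whereas without normalization all 3 were past it (0.41 for miR-126, 1.28 for miR-143 and 1.40 for miR-145), as were 63.3% of the abundant miRNAs on the higher side. Of 4 oligodendrocyte probes, miR-219-2-3p was the brightest and was detected on both arrays, at -0.24 ± 0.11 after loess and, with the sign turned, 0.45 without normalization. miR-338 was at background for vehicle (251) and at 863 for alcohol. miR-219-5p was likewise detected for alcohol alone, with densities of 255 and 223 and 9 of 9 alcohol spots above the limit of that array. The summed density of the 4 was 2888 and 4063. miR-219-1-3p was not detected on either array.

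Of 5 microglia and leukocyte probes, miR-150 (the brightest, at -0.20 ± 0.56 after loess and 0.33 without normalization) and miR-146a (-0.48 ± 0.22 and 0.47) were detected on both arrays, so their sign turned with the scaling. The defining markers miR-142-3p, miR-142-5p and miR-223 were not detected on either array, and the summed density of the 5 was 4287 and 4757. Neither red blood cell probe, miR-144 or miR-451, was detected on either array, with sums of 486 and 274 that are background. For choroid plexus and the ciliated lining, miR-204 was at background for vehicle (269) and at 1563 for alcohol. miR-34b and miR-449a were not detected, and miR-34c was detected in alcohol alone, with densities of 252 and 188. The sum of these 4 was 1018 and 2041. Of all 197 detected miRNAs, 46 were detected in alcohol alone and 1 in vehicle alone, the limit being lower on the alcohol array. miR-204, miR-338, miR-34c and miR-219-5p are among the 46, and the ratios of the last 2 were below the spread of their spots. The part of miR-204 and miR-338 in the ratios of miR-137 and miR-218 was not tested.

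Tissues outside the brain were represented by 12 probes, of which 9 were not detected on either array, among them the muscle miRNAs miR-1, miR-133b and miR-206 and the epithelial miR-200 group. The muscle miRNA miR-133a was detected on the vehicle array alone, in 5 of 9 spots, and the endocrine miR-375 on the alcohol array alone, in 7 of 9. The brightest was miR-122, a liver miRNA, with 602 for vehicle and 288 for alcohol. Its log2 ratio was -2.18 ± 0.12 after loess and -1.11 without normalization. The summed density of the 12 was 3389 and 2001, most of it background.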

How the data were processed

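Small RNA of the NAc was measured on 2 arrays, a vehicle array and an alcohol array. The main values were the intensities of single spots as deposited, each the mean density of a spot without background subtraction. The processed intensity that the authors deposited for each of the 349 probes, after background subtraction and a cyclic normalization by them, was used as an alternative. Its medians were 42.7 (vehicle) and 50.2 (alcohol). Set against the spot values over the detected probes of each array, its log2 values gave r = 0.987 and 0.999, so it is linear and not centred, and its normalization settings are not given in the sources used here.

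With limma 3.58.1 (R 4.3.3), spot intensities were corrected by the normexp method with an offset of 50, fitted on the foreground of all 3968 spots, since no background column was used. They were log2-transformed, summarised as the median of the 9 spots of a probe, and put through cyclic loess with a span of 0.7 and 3 iterations over the 349 rat miRNA probes. Other steps used Python 3.11.15 with numpy 2.4.6, pandas 2.3.3 and matplotlib 3.10.9. Steps were tested on simulated arrays. A spot under 10% of the median density of its probe was called failed and left out of the SD, which concerned 1 spot of the members.

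The number of arrays limits the precision, and the t-test that the methods name could not be made from 1 array per group. Members and lists were chosen with earlier results of these data known. Named are the members, their passenger strands, the 2 nearest miRNAs of each, probes with the same or a shifted seed, and from each list the brightest and up to 3 detected miRNAs with the largest ratios. Any further miRNA was named with its values known. miR-486 and miR-149, 2 names of the lists, had no probe.

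Alternatives were no normalization, scaling to the median of detected miRNAs, to the 75th percentile, to 6 probes for 5S rRNA or to 10 calibration spikes, quantile normalization, loess on detected miRNAs, no background correction, a mismatched control baseline, log2 or linear means of spots, the first 5 or last 4 spots, the processed values, and removal of a GC trend. The ratios of spots at the same place were added after the data had been seen. Other thresholds were 1.5-fold, 2-fold and no minimum signal.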

Additional observations from a re-analysis of the deposited data

How the results depend on the processing

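Each ratio was recomputed under 16 other settings, and counts also under 3 other thresholds. Constant scalings moved the median log2 ratio of the 150 miRNAs detected on both arrays from -0.035 to 0.52 without normalization, 0.53 with calibration spikes, 0.80 with 5S rRNA, -0.67 with the median of detected miRNAs and -0.47 with the 75th percentile. The higher and lower counts over all miRNAs, 30 and 26 after loess, were then 81 and 8, 82 and 8, 99 and 1, 17 and 77, and 26 and 63. They were 22 and 33 with quantile normalization, 25 and 33 with the processed values, 19 and 18 at 1.5-fold and 11 and 9 at 2-fold.

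Without normalization, miR-9 was at -0.46, miR-124 at -0.12, miR-128 at -0.38 and miR-138 at 0.35. With calibration spikes they were at -0.45, -0.12, -0.37 and 0.35. In both, 3 members were past 1.3-fold, 2 higher and 1 (miR-9) lower, while 5S rRNA and a mean of log2 spots gave 3 higher and 0 lower. Of the abundant miRNAs, 64.1% were higher and 6.25% lower with calibration spikes, and 75.6% and 0.763% with 5S rRNA. A mean of log2 spots put 26.4% of the abundant miRNAs on the higher side and 20.8% on the lower. With 5S rRNA, miR-9 was at -0.18, miR-124 at 0.15, miR-128 at -0.100, miR-137 at 1.00, miR-138 at 0.62 and miR-218 at 0.90, and the members' median was 0.39. With the median of detected miRNAs, miR-9 was at -1.65, miR-124 at -1.32, miR-128 at -1.57, miR-137 at -0.47, miR-138 at -0.85 and miR-218 at -0.57, with a median of -1.08 and 6 members past 1.3-fold, all lower. With the 75th percentile they were at -1.45, -1.12, -1.37, -0.27, -0.65 and -0.38, with a median of -0.88 and 4 members past 1.3-fold, all lower. Of the abundant miRNAs, 50% were lower and 20.6% higher with that scaling. The distance of the members from the median of detected miRNAs, 0.088 after loess, was -0.41 in these 5 settings.

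Quantile normalization put miR-124 at 0.14. A mean of log2 spots put miR-9 at 0.72, the members' median at 0.27 and their distance at 0.34, because the failed spot enters it, and a linear mean put miR-9 at 0.14. With the first 5 spots 1 member was past 1.3-fold, on the higher side, and miR-138 was at -0.048. Of the abundant miRNAs, 22.2% were higher and 19.8% lower in that setting. In the processed values miR-9 was at 0.13, miR-128 at 0.16 and miR-138 at -0.33, with a distance of 0.23. With the GC trend removed, miR-9 was at -0.43, miR-124 at 0.46, miR-137 at 0.13 and miR-138 at 0.12, with 1 member (miR-124) past 1.3-fold higher and 1 (miR-9) lower. The abundant miRNAs were then higher in 23.3% and lower in 28.3% of cases. At 1.5-fold and at 2-fold 0 members were counted. Apart from the failed spot, the cause of these changes was not tested.

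The remaining values moved by less than the spread of the spots, among them miR-137 in 12 of the 16 settings. For miR-218 that spread (0.45) holds its fall along the vehicle array and is a weak yardstick. Against 0.50 after loess, its ratio was 0.18 with the first 5 spots and 0.16 with the GC trend removed, neither past 1.3-fold. It was 0.81 with the last 4 spots and 0.90 with 5S rRNA. No paired analysis was possible because there is 1 array in each group. Signal over background did not limit the members, all of which were detected on both arrays, and the single array per group did.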
